A study of Mus musculus with 6 samples.

Results

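The cytosolic ribosomal protein genes, which code for the proteins of the small (Rps) and large (Rpl) ribosomal subunits outside mitochondria, were followed through exonic and intronic reads of mouse cells with and without Dicer and of cells given a transcription factor. Members were taken by name: every row whose symbol is Rpl or Rps followed by a number and at most a paralog suffix, plus Rpsa and the stalk genes Rplp0, Rplp1 and Rplp2. The names matched 84 of 23227 rows in the exonic tables and 81 of 23231 in the intronic ones. With a mean of at least 50 normalised reads over the libraries of a table, 78 members of 10706 genes were measured in exonic reads of the Dicer comparison and 77 members in each of the other 3 comparisons. In intronic reads 77, 75, 72 and 73 members were measured for the Dicer, Pbx3, Sox9 and Tead4 comparisons.

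A ribosome holds 1 copy of nearly every ribosomal protein, and cells make these proteins in matched amounts. Their mRNAs are among the most abundant of a growing cell, and most begin with a run of pyrimidines, the terminal oligopyrimidine motif, through which mTOR signalling and the protein Larp1 control their translation. Several members have duties outside the ribosome, such as Rpl5, Rpl11 and Rpl23, which bind the p53 inhibitor Mdm2, and several have paralogs that can take their place.

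The cells were immortalized mesenchymal stem cells of the mouse, called fibroblasts in other labels, grown in Alpha-MEM with 10% fetal bovine serum. Dicer cuts microRNA precursors, and its 2 lines, Dicer WT (f/f, floxed and intact) and Dicer KO (-/-), were each 1 clone, and what belongs to the genotype and what to the clone cannot be told apart. The other 4 groups were Dicer WT cells transfected with a vector that was empty or held the transcripts of Pbx3, Sox9 or Tead4. Every group mean resolved into whole reads of 2 libraries, although the labels list 1 sample a group, and nothing says that these came from separate cultures, so p-values measure only the spread between 2 libraries. Exonic depth was 6130267 to 23501655 reads a library and intronic depth 3156973 to 10205497. Changes are limma log2 fold changes of normalised reads + 1 with their standard error, n = 2 libraries a group. Vector values differ between comparisons because each table has its own size factors. "Rose" and "fell" are kept for a limma adjusted p under 0.05. Dicer1 totals stood at 1407 and 1343 in WT and 935 and 1067 in KO, which cannot show whether the deleted part is missing. Pbx3 and Tead4 rose in their own cells by 7.04 ± 0.21 and 7.17 ± 0.18, while Sox9 in its cells was 1.29 ± 0.39 higher with a limma adjusted p of 0.272. Of the stromal markers 18 were measured, with an exonic median of −0.43 in the Dicer comparison. There 2 of them rose and 7 fell, where 9.28% of all genes rose and 7.36% fell. The blood, endothelial and epithelial markers summed to at most 69, 29 and 15 exonic and 56, 117 and 10 intronic reads in any library.

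The start regions of the members are shown first, because the pyrimidine motif and shared promoter elements are what this gene family is known for. RefSeq start windows of build GRCm38.p6 matched 63 of the 84 members by symbol. Each line below holds the 40 bases before and the 20 bases from the start, 5′ to 3′ on the gene's strand, for the member that rose in Dicer KO, its namesake and 4 of the members that fell most. Capitals mark runs of at least 8 C or T.
Rpl22l1: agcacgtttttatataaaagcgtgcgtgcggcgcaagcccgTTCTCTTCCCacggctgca
Rpl22: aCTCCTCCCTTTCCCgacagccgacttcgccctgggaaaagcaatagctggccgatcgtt
Rps27l: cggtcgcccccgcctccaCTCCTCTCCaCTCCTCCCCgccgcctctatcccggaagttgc
Rpsa: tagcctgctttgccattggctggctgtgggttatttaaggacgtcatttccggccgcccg
Rplp0: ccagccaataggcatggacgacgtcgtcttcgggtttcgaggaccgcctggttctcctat
Rpl41: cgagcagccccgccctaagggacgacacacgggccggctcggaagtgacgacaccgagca
The windows lie at chr3:28805468-28805527 (Rpl22l1, plus strand), chr4:152325686-152325745 (Rpl22, plus strand, one of its listed starts), chr9:66946046-66946105 (Rps27l, plus strand, one of its listed starts), chr9:120127726-120127785 (Rpsa, plus strand), chr5:115559427-115559486 (Rplp0, plus strand) and chr10:128549149-128549208 (Rpl41, minus strand). A run of at least 8 C or T was found in this window in 57.1% of the 63 members and in 27.2% of all 27025 genes. Such a run can lie anywhere in the window, so these are not shares of transcripts that begin with pyrimidines. Over 250 bases before to 50 after the start and on either strand, CCGGAAG, the core of ETS factor sites, was found in 41.3% of members and 9.93% of all genes. The E-box CACGTG, which Myc binds, was found in 9.52% against 8.09%, and TATAAA in 11.1% against 15.7%. The ends of these motifs, on one strand or the other, can overlap a C or T run. Of the 13 members that fell in Dicer KO exonic reads, 9 had a window, 4 of them with CCGGAAG and 2 with such a run. These 2 were Rpl22 and Rps27l, whose runs end before the start in the windows above. Rpl22l1, which rose, had a run too, from just after the start.

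In exonic reads most members were lower in Dicer KO than in Dicer WT cells, by modest amounts, and 1 paralog went strongly the other way. Of 78 measured members, 69 were lower and 9 higher, with a median of −0.24 against 0.01 for all genes. By limma 13 fell and 1, Rpl22l1, rose, where 7.36% of all genes fell and 9.28% rose. The members that fell were 16.7% of those measured and the one that rose 1.28%. Both KO libraries lay below both WT libraries in 45 members, 57.7%, against 30.3% of all genes. Without Dicer KO library 2 the members' median was −0.15 and without Dicer KO library 1 it was −0.35. In bulk RNA, fewer cells of a kind and less RNA per cell cannot be told apart.

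**Figure D1:**
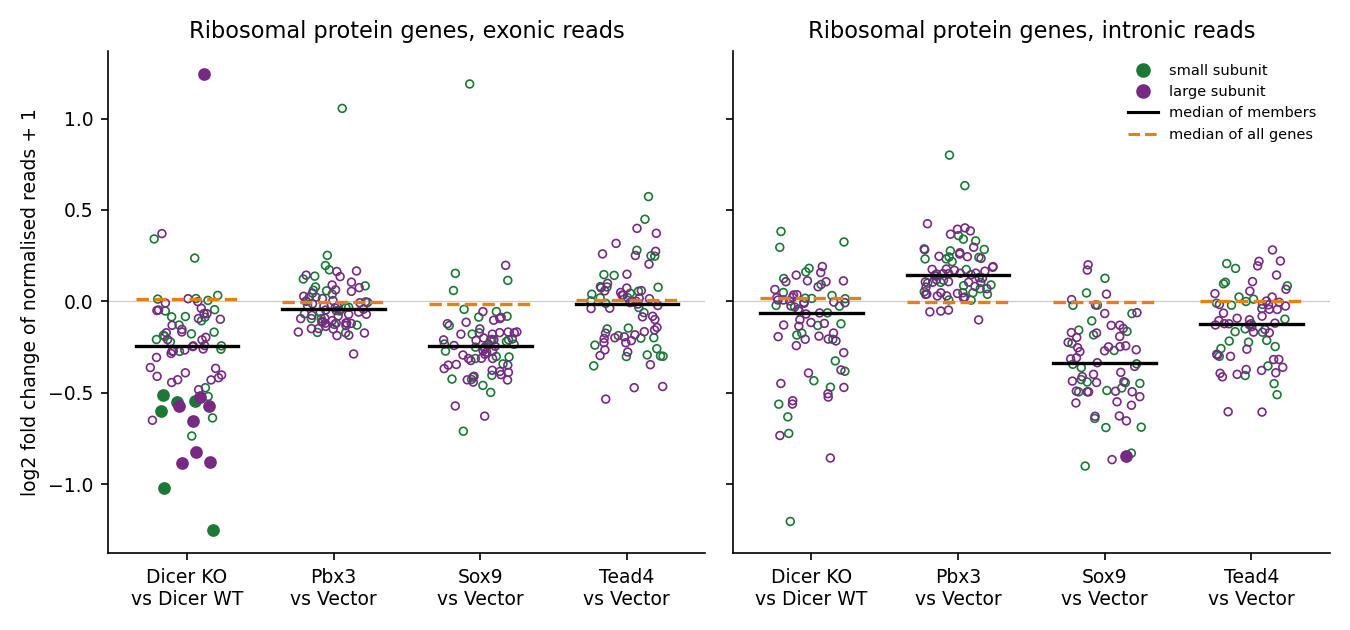
Log2 fold change of each measured ribosomal protein gene (vertical axis) in exonic reads (left) and intronic reads (right) of the 4 comparisons, with small subunit members in green and large subunit members in purple; filled points have a limma adjusted p under 0.05, and lines give the medians of members (solid) and of all genes (dashed). Members sit below all genes in exonic reads of Dicer KO and Sox9 cells and in intronic reads of Sox9 cells, and above them in intronic reads of Pbx3 cells.

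The member with the lowest adjusted p was Rpl22l1, a paralog of Rpl22, an RNA-binding protein of the large subunit that the ribosome can do without. Rpl22l1 stood at 624 and 586 normalised reads in the WT libraries and at 1451 and 1420 in the KO libraries. Both KO libraries were more than double either WT library, and the gene rose by 1.25 ± 0.14 (limma adjusted p = 0.00732). Rpl22 stood at 9841 and 8626 in WT and at 6319 and 5422 in KO, with no overlap, and fell by 0.65 ± 0.15 (limma adjusted p = 0.0428). Set against Rpl22 within the same library, Rpl22l1 had 6.34% and 6.79% of its reads in WT and 23.0% and 26.2% in KO. The same share was 6.07% and 4.66% in vector cells, 5.89% and 6.01% with Pbx3, 9.20% and 7.15% with Sox9 and 7.23% and 6.51% with Tead4, so the KO libraries stood alone among the 12. In these 3 comparisons Rpl22l1 itself did not pass limma, at 0.13 ± 0.19, 0.20 ± 0.20 and 0.40 ± 0.18. Of the 50-base windows of Rpl22l1 transcripts, 65.6% also occur in other annotated genes, against 5.20% for Rpl22, and how the authors assigned such reads is not given in the sources used here.

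**Figure D2:**
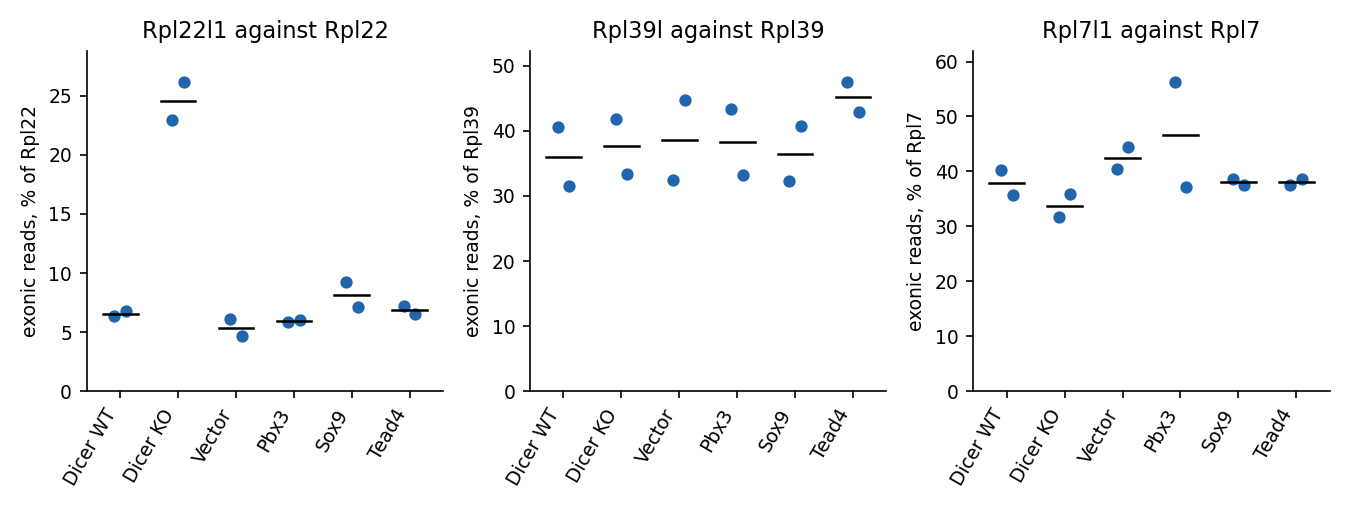
Exonic reads of 3 paralogs as a percentage of the reads of the gene they are named after (vertical axes, starting at 0), 1 point a library and a line at the mean of 2, for the 6 groups. Rpl22l1 reaches 23.0% and 26.2% of Rpl22 in the Dicer KO libraries and stays at or below 9.20% in the other 10, while Rpl39l and Rpl7l1 show no such step.

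The other paralogs did not follow. Rps27l, a paralog of Rps27 known as a p53 target, fell most of all members, by 1.25 ± 0.24 (limma adjusted p = 0.0285), from 5203 and 3803 in WT to 2225 and 1564 in KO. Its namesake Rps27 had only 9 to 90 exonic reads in a library and gives no usable ratio. Rpl39l, known from testis, stood at 3973 and 2877 in WT and 2977 and 2149 in KO, with overlap, and Rpl39 at 9802 and 9136 against 7121 and 6430, without; neither passed (−0.42 ± 0.23 and −0.48 ± 0.13, limma adjusted p = 0.267 and 0.0653). Rpl39l made 40.5% and 31.5% of Rpl39 reads in WT and 41.8% and 33.4% in KO. Rpl7l1, a factor of large subunit assembly, made 40.2% and 35.7% of Rpl7 reads in WT and 31.7% and 35.8% in KO, at −0.43 ± 0.18 (limma adjusted p = 0.16) beside −0.26 ± 0.18 for Rpl7. Rpl3l, a muscle paralog of Rpl3, had at most 1 exonic read in any library, and Rpl10l, a retrogene of the male germ line, had 0 in all 12.

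Of 32 measured small subunit members 6 fell and 0 rose, with a median of −0.19, where 7.36% of all genes fell and 9.28% rose. Rpsa, the laminin receptor precursor of the small subunit, stood at 27856 and 27038 in WT and 14322 and 12791 in KO, the KO libraries at about the same level and well below WT. It fell by 1.02 ± 0.14 (limma adjusted p = 0.013). Rps15, which lies near the decoding centre, fell by 0.60 ± 0.13 from 12627 and 12149 to 8402 and 7956. Rps20, from 13453 and 13253 to 9595 and 8724, fell by 0.55 ± 0.13. Rps28 fell by 0.51 ± 0.12, and Rps27l, described above, fell too. These small subunit members had limma adjusted p values of 0.013 to 0.0474, and their libraries did not overlap between groups.

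Of 46 measured large subunit members 7 fell and 1 rose, with a median of −0.26, beside the same 7.36% and 9.28% of all genes. The stalk recruits elongation factors to the ribosome and is built of Rplp0 with the dimers of Rplp1 and Rplp2. Rplp0 stood at 51081 and 52491 in WT and 30608 and 25832 in KO and fell by 0.88 ± 0.16 (limma adjusted p = 0.0258). Rplp1 fell by 0.88 ± 0.16 as well (limma adjusted p = 0.0263), from 22891 and 20646 to 13071 and 10637. Rplp2 had 3133 and 3115 in WT and 2784 and 2665 in KO; its libraries did not overlap either, but at −0.20 ± 0.12 it did not pass (limma adjusted p = 0.303). Whether Rplp1 and Rplp2 differ in their change was not tested. Rpl41, which codes for the smallest ribosomal protein, fell by 0.83 ± 0.16 (limma adjusted p = 0.0286), from 21060 and 18975 to 12381 and 10273. Rpl9, from 5118 and 4868 to 3587 and 3352, fell by 0.53 ± 0.12. On the higher side, after Rpl22l1, stood Rpl15, at 5580 and 4858 against 7242 and 6254 (0.37 ± 0.15). Next stood Rps7, at 2584 and 2162 against 3429 and 2615 (0.34 ± 0.19). Neither passed. In each of them both KO libraries exceeded both WT libraries, as in 4 of 78 members, 5.13%, against 33% of all genes.

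Rpl11, Rpl5 and Rpl23 bind Mdm2. Rpl11 stood at 2780 and 2483 in WT and 1794 and 1743 in KO and fell by 0.57 ± 0.13 (limma adjusted p = 0.0436). Rpl5 and Rpl23 did not pass, at −0.27 ± 0.16 and −0.10 ± 0.14. Mdm2 itself, the ligase that degrades p53, fell by 0.86 ± 0.14 (limma adjusted p = 0.0182), from 3218 and 2915 to 1779 and 1602. It was the only one to pass in a list of 18 measured genes of mTOR, Myc and p53 control. Of these, 13 were higher and 5 lower, with a median of 0.12. A list of 9 members mutated in Diamond-Blackfan anaemia, an inherited failure of red cell production, was also followed, and it need not hold every such member. Of these 9, 8 were lower and 1, Rpl11, fell. Of all members 16.7% fell, and of all genes 7.36%. Other translation genes with a pyrimidine start were split: of 18, 10 were lower and 8 higher, 0 passed, and the median was −0.09. Of 40 measured genes of ribosome assembly and RNA polymerase I, 25 were higher and 15 lower, 0 passed, and the median was 0.06, beside a difference of 0.77 between the WT libraries and 0.29 between the KO libraries whose part was not tested. Of 10 cell cycle genes 0 passed, with a median of −0.01.

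The other genes of a chromosome shifted together between the Dicer lines, and most members that fell lie on chromosomes that were low. This grouping was chosen after the values were seen, with chromosomes from RefSeq. The median change of the genes other than members ran from −0.34 on chromosome 9 to 0.24 on chromosome 3. On chromosome 9, 483 of 609 such genes were lower in KO, and on chromosome 10, 387 of 522, with a median of −0.26. Of the 13 members that fell, 12 lie on the 7 member-bearing chromosomes whose other genes had a median below 0, among them Rps27l, Rpsa and Rplp1 on chromosome 9, Rpl41 and Rps15 on 10 and Rpl22, Rpl11 and Rps20 on 4, while Rpl22l1 lies on chromosome 3. How many of the other genes fell on these 7 chromosomes was not counted, so the 12 of 13 has no share of all genes beside it. On these 7 chromosomes 25 of 25 members were lower, and on the other 12 with members 44 of 53 were. The median of the members was below that of the other genes on 19 of 19 chromosomes. On chromosome 3 this was only 0.2362 against 0.2364, with 0 of 3 members lower in KO, and chromosomes 6 and 13 held 1 member each.

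When each library was centred on the other genes of each chromosome, the members' median was −0.28 and 74 of 78 were lower. Then 4 fell, Rplp0, Rpsa, Rps28 and Rpl37a, beside 5.89% of all genes, and Rpl22l1 alone rose, beside 6.86% of all genes. Rpl22l1 was 0.98 ± 0.13 higher after centring (limma adjusted p = 0.0139), Rplp0 0.83 ± 0.16 lower (limma adjusted p = 0.0331) and Rpsa 0.69 ± 0.14 lower (limma adjusted p = 0.0354). Rps27l at −0.92 ± 0.24, Rplp1 at −0.55 ± 0.16, Rpl41 at −0.56 ± 0.15 and Rpl22 at −0.44 ± 0.14 no longer passed, with limma adjusted p values of 0.0671, 0.0859, 0.0747 and 0.106. The deposited tables hold RNA only, and the copies of each chromosome in the 2 lines were not measured here.

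**Figure D3:**
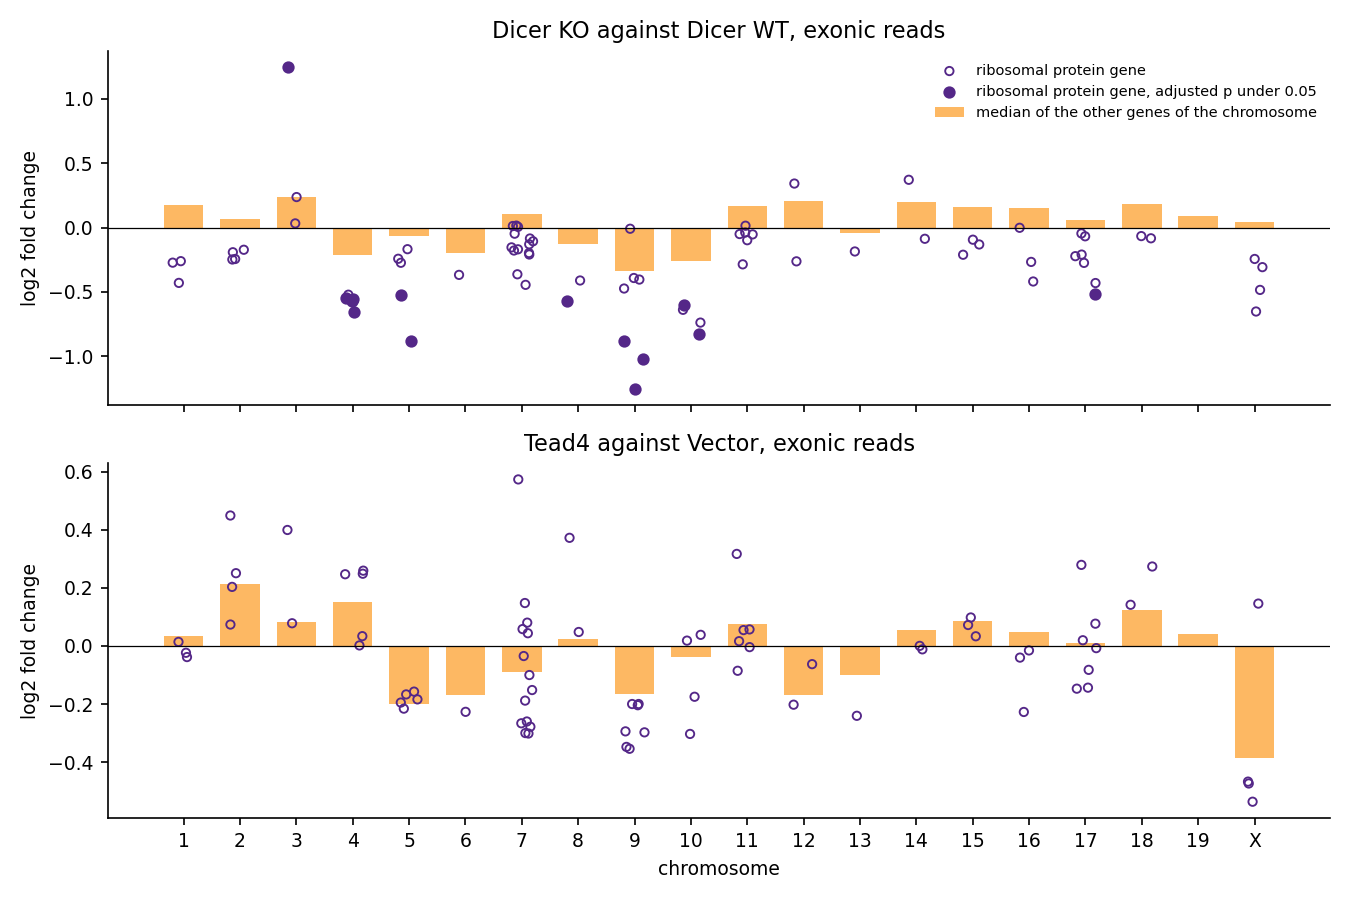
Exonic log2 fold change by chromosome for Dicer KO against Dicer WT (top) and Tead4 against Vector (bottom): bars give the median of the other genes on each chromosome and points the ribosomal protein genes, filled where the limma adjusted p is under 0.05. In the top panel the filled low points lie mostly on chromosomes whose bars are below 0; in the bottom panel the 3 lowest points lie on X, where the other genes have a median of −0.39.

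When 1 library was left out, its group kept a single library, which limma assumes to vary like the other group, and 1 degree of freedom fewer was left. Without Dicer WT library 1, 5 members fell, 6.41% against 7.98% of all genes. Without Dicer WT library 2, 9 fell, 11.5% against 7.59%. Without Dicer KO library 1 only Rps27l fell, 1.28% against 2.49%, and without Dicer KO library 2 the count was 0, against 3.17%. Rpl22l1 rose in each of these fits. The libraries of a group also differed along genes shared by all groups, and taken in that order the members were a median 0.15 higher in the first WT library than in the second and 0.18 higher in the first KO library. Each KO library had a lower share of reads from members than either WT library: 3.11% and 2.96% of exonic reads in WT, 2.58% and 2.24% in KO. The shares were 2.94% and 2.98% in vector cells, 2.84% and 2.93% with Pbx3, 2.34% and 2.67% with Sox9, and 2.90% and 2.72% with Tead4. Counting error (95% Wilson interval) adds at most 0.0128 percentage points to either side of these shares.

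**Figure D4:**
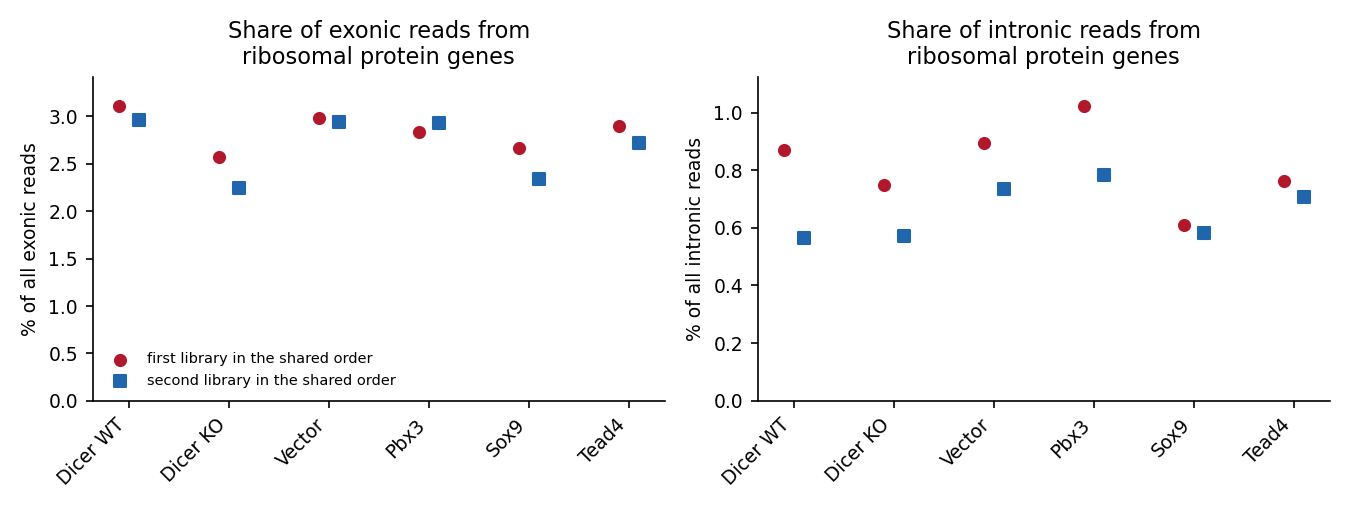
Share of all exonic (left) and intronic (right) reads that came from ribosomal protein genes, in percent, 1 point a library, with circles and squares for the first and second library of each group in the order that the groups share. The exonic share is 2.24% to 2.67% in the Dicer KO and Sox9 libraries and 2.72% to 3.11% in the others, and in intronic reads the 2 Dicer WT libraries stand at 0.872% and 0.564%.

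Intronic reads can come from RNA not yet spliced or from small RNAs encoded in introns. They gave 0 calls among the members in Dicer KO cells. Of 77 members 49 were lower and 28 higher, with a median of −0.06 against 0.02 for all genes, and 0 passed limma, where 6.51% of all genes did; 5 had an unadjusted p under 0.05, and 1, Rps27l, passed in the authors' test. Rps27l stood at 1030 and 728 in WT and 315 and 447 in KO (−1.20 ± 0.26, limma adjusted p = 0.0645). Rplp1 stood at 1530 and 1148 against 637 and 838 (−0.86 ± 0.22), Rplp0 at 1149 and 793 against 552 and 595 (−0.73 ± 0.21) and Rpsa at 1911 and 1249 against 804 and 1088 (−0.72 ± 0.27). In these 4 the KO libraries lay below the WT libraries, which held for 6 of 77 members, 7.79%, against 28.4% of all genes. Rpl22l1, at 361 and 164 against 248 and 297, overlapped and was 0.16 ± 0.40 higher. Library differences were large here: members were a median 0.76 higher in the first intronic WT library than in the second, 77 of 77 of them, and 0.40 in KO. Without Dicer WT library 2, 77 of 77 members were lower, with a median of −0.45, and 7 fell, 9.09% against 4.34% of all genes. Without Dicer WT library 1, 63 of 77 were higher, with a median of 0.28, and without Dicer KO library 1 the median was 0.11.

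The exonic change minus the intronic change, with libraries of both kinds matched by that shared order, was tested for 75 members. In Dicer KO cells 64 were negative and 11 positive with a median of −0.11, and 0 passed limma, where 3.92% of all genes did; 4 had an unadjusted p under 0.05. Rpl22l1 had the highest difference, 1.09 ± 0.31 (limma adjusted p = 0.112), and Rpl15 the next, 0.36 ± 0.22. Low differences were seen for Rpl39, at −0.63 ± 0.24, and Rpl22, at −0.53 ± 0.28. For Rps27l, Rplp1 and Rplp0 the exonic and intronic values were close, with differences of −0.05 ± 0.10, −0.02 ± 0.16 and −0.15 ± 0.28. The direction turned on 1 library: without Dicer WT library 2, 62 of 75 members were positive with a median of 0.18, and Rpl22l1 alone passed, beside 7.84% of all genes. Without Dicer WT library 1 the median was −0.43, and 16 members passed with a lower and 1 with a higher exonic than intronic change, 21.3% and 1.33% against 2.30% and 4.97% of all genes.

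**Figure D5:**
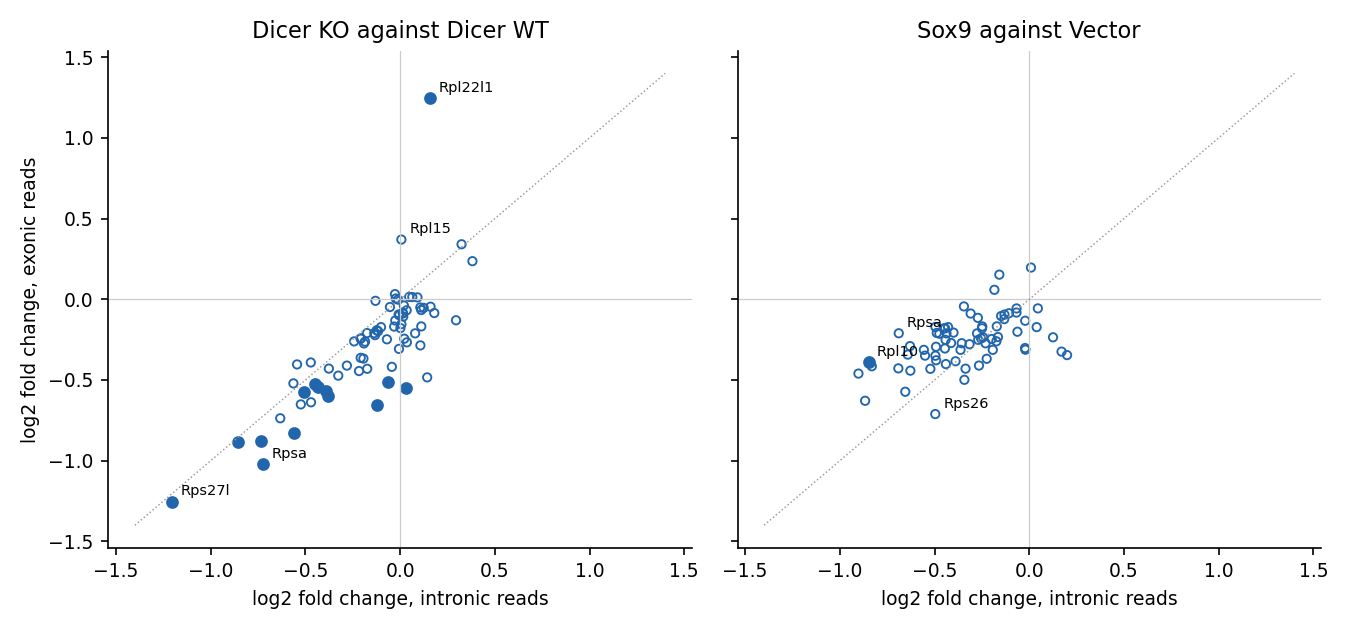
Exonic log2 fold change (vertical axis) against intronic log2 fold change (horizontal axis) of each member measured in both, for Dicer KO against Dicer WT (left) and Sox9 against Vector (right); filled points pass limma in exonic or intronic reads, and the dotted line marks equal change. Rps27l and Rpsa are low in both kinds of reads of Dicer KO cells, and Rpl22l1 is at 1.25 in exonic and 0.16 in intronic reads.

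In cells given Pbx3, a homeodomain factor, most exonic values of members lay near 0. Of 77 members 50 were lower and 27 higher with a median of −0.04, and 0 passed limma, where 0.0102% of all genes did; without vector library 2 the median was 0.03, with 46 higher. By unadjusted p, 1 member was under 0.05. The highest was Rps16, at 251 and 110 in vector and 305 and 392 with Pbx3 (1.06 ± 0.41). Of its 50-base transcript windows, 41.6% recur in other annotated genes, 89 of them. Next stood Rps9 at 4580 and 4033 against 4996 and 5237 (0.25 ± 0.16) and Rps2 at 0.20 ± 0.17. The lowest was Rpl32, at 6253 and 7203 against 5682 and 5314 (−0.29 ± 0.16), followed by Rpl7 and Rpl15, both at −0.19. The stalk genes were at −0.06, 0.10 and 0.17 for Rplp0, Rplp1 and Rplp2. In intronic reads 71 of 75 members were higher, with a median of 0.15 against 0.00 for all genes, and 0 passed, as for all genes (0%); 0 had an unadjusted p under 0.05. Members were a median 0.43 apart between the vector libraries and 0.55 between the Pbx3 libraries. Without vector library 1 the median turned to −0.08 and without Pbx3 library 1 to −0.12, and without vector library 2 or Pbx3 library 2 it was 0.35 or 0.44. Of 73 members 0 passed in the exonic minus intronic change, where 0.0125% of all genes did; 2 had an unadjusted p under 0.05.

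Sox9 cells, given the cartilage factor Sox9, had low members in both kinds of reads. In exonic reads 72 of 77 were lower, with a median of −0.25 against −0.02 for all genes. By limma 0 passed, where 0.547% of all genes did, while 14 had an unadjusted p under 0.05. Both Sox9 libraries lay below both vector libraries in 49 members, 63.6%, against 23.4% of all genes. The lowest were Rps26, a member at the mRNA exit, at 4304 and 6091 in vector and 2723 and 3591 with Sox9 (−0.71 ± 0.24), Rpl41 at 6106 and 6336 against 3501 and 4621 (−0.63 ± 0.20) and Rpl35a at 833 and 1115 against 566 and 741 (−0.57 ± 0.21). Their limma adjusted p values were 0.298, 0.288 and 0.33. The highest were Rps16, at 209 and 92.0 against 341 and 295 (1.19 ± 0.36), Rpl22l1 at 0.20 ± 0.20 and Rps28 at 0.15 ± 0.23. Rplp0, Rplp1 and Rplp2 stood at −0.31, −0.24 and −0.09. Without vector library 1, Rps16 rose and 5 members fell, Rpl24, Rpl35a, Rps26, Rps27a and Rps27l, 1.30% and 6.49% of members against 7.53% and 5.58% of all genes.

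The medians of the other genes by chromosome ran from −0.29, on chromosome 10, to 0.16 in Sox9 cells, and the members' median was below that of the other genes on 19 of 19 chromosomes. The 4 members on chromosome 10, Rps26, Rpl41, Rps15 and Rps12, had a median of −0.56, with other genes there at −0.29. After centring within chromosomes the members' median was −0.23, with 73 of 77 lower and 0 past limma. Assembly and RNA polymerase I genes were low as well, 38 of 40 with a median of −0.49 and 0 past limma, beside differences of 0.63 and 0.25 between the libraries of vector and Sox9 cells whose part was not tested. Of 18 other translation genes 16 were lower, with a median of −0.30 and 0 past limma. In exonic reads the Sox9 libraries were the shallowest of the series, at 7767701 and 6130267 reads.

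In intronic reads of Sox9 cells 66 of 72 members were lower, with a median of −0.34 against −0.01 for all genes. Without vector library 2 the median was −0.17 with 48 lower, and without vector library 1 it was −0.53 with 71 lower. Rpl10, a late-assembling protein of the large subunit, stood at 653 and 724 in vector and 371 and 392 with Sox9, and fell by 0.85 ± 0.15 (limma adjusted p = 0.0301). It was the only member to pass, 1.39% of those measured against 1.99% of all genes, and 22 had an unadjusted p under 0.05. Without vector library 2 or without Sox9 library 1, 0 members fell, without Sox9 library 2 Rpl41 fell in place of Rpl10, and without vector library 1, 15 fell, 20.8% against 2.28% of all genes. Rps12 had 619 and 915 against 391 and 414 (−0.90 ± 0.20, limma adjusted p = 0.0691), Rpl41 235 and 396 against 127 and 220 (−0.87 ± 0.31) and Rpsa 589 and 665 against 356 and 423 (−0.69 ± 0.16). No overlap with vector was seen in 38 members, 52.8%, against 24.9% of all genes. Members were a median 0.43 apart between the vector libraries and 0.03 between the Sox9 libraries. The exonic change exceeded the intronic one in 50 of 70 members, with a median of 0.07; 0 passed, where 0.0128% of all genes did, and 5 had an unadjusted p under 0.05. Without vector library 2 the direction turned, with 48 of 70 negative and a median of −0.08, and without vector library 1 the median was 0.24. Rpsa, Rpl10 and Rps12 had the highest differences, 0.48 ± 0.16, 0.46 ± 0.13 and 0.44 ± 0.20.

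In cells given Tead4, a DNA-binding partner of YAP, the members' exonic median was −0.02, with 42 of 77 lower and 35 higher; without Tead4 library 2 it was 0.06, and without Tead4 library 1 it was −0.10. By limma 0 passed, where 0.143% of all genes did; 6 had an unadjusted p under 0.05. The lowest members were Rpl10, at 3090 and 3076 in vector and 2167 and 2087 with Tead4 (−0.54 ± 0.12, limma adjusted p = 0.156), Rpl39, at 4321 and 3900 against 2847 and 3072 (−0.47 ± 0.13), and Rpl36a, at 1101 and 1185 against 824 and 829 (−0.47 ± 0.13). In each of them both Tead4 libraries lay below both vector libraries, as in 27 of 77 members, 35.1%, against 24% of all genes. All 3 genes lie on the X chromosome, where 249 of 309 other genes were lower as well, with a median of −0.39 in exonic and −0.39 in intronic reads. The remaining measured member on X, Rps4x, stood apart from them at 0.15 ± 0.15. Centred within chromosomes, Rpl10, Rpl39 and Rpl36a were at −0.17 ± 0.12, −0.11 ± 0.12 and −0.10 ± 0.13, and Rps4x at 0.51 ± 0.17 (limma adjusted p = 0.327).

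The highest members with Tead4 were Rps16 (0.57 ± 0.40), Rps21, at 959 and 849 against 1323 and 1147 (0.45 ± 0.14), and Rpl22l1, at 237 and 207 against 329 and 261 (0.40 ± 0.18). Rps21 lies on chromosome 2, where the median of the other genes was 0.21. Rplp0 and Rplp1 stood at −0.22 and −0.20 and Rplp2 at 0.15. In intronic reads 55 of 73 were lower with a median of −0.12, but without vector library 2, 45 of 73 were higher with a median of 0.07, and without vector library 1 the median was −0.34. By limma 0 passed, where 1.61% of all genes did; 6 had an unadjusted p under 0.05. Rpl36a and Rpl10 were again lowest, at −0.61 ± 0.21 and −0.60 ± 0.15. Without vector library 1, 4 members rose and 12 fell in exonic reads, 5.19% and 15.6% against 12.3% and 12% of all genes, and 11 fell in intronic reads, 15.1% against 5.03%. Without vector library 2, Rpl10 and Rpl39 fell in exonic reads, 2.60% against 6.31%. Of 71 members 54 had a higher exonic than intronic change, 0 passed, where 0.0125% of all genes did, and 0 had an unadjusted p under 0.05. Without vector library 2 this turned to 28 of 71 with a median of −0.06, against 0.10 with all libraries. The 3 factor comparisons share the vector libraries, so their values are given side by side and not as support for each other.

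Levels per kb of transcript, in normalised exonic reads of Dicer WT cells, put Rplp0 first at 60639, followed by Rplp1 at 43624, Rpl8 at 38845 and Rpl41 at 38019. The median over the 78 measured members was 7417. The order rests on transcript lengths of GENCODE M21, which need not be those the authors counted on. At the other end, Rpl26 and Rps4y2 had 0 exonic reads in all 12 libraries, which allows up to 3 in a library, and Rpl30 and Rpl34 had 2 to 21 and 6 to 55. Rpl26 and Rpl30, both core proteins of the large subunit, had 144 to 995 and 353 to 1455 intronic reads in the same libraries, and Rpl30 thus had more reads in its introns than in its exons. For Rpl34 and for Rps2, a core protein of the small subunit, the intronic tables list 0 in all 12. Of the transcript windows of Rpl26 and Rpl30, 61.0% and 76.4% recur in other annotated genes, with a median of 53.3% over members; how such reads were counted was not tested. Of the members with fewer than 20% of windows shared, 10 were measured in exonic reads of the Dicer comparison. Of these, 8 were lower and 2 fell, with a median of −0.31. Of the 68 with more, 11 fell, with a median of −0.24, and of all genes 7.36% fell. Members that host snoRNA genes in their introns had an exonic median of −0.24 in Dicer KO, as had those that do not. In intronic reads the medians were −0.01 for hosts and −0.09 for the others in Dicer KO, and −0.44 and −0.28 in Sox9 cells. With Pbx3 they were 0.15 and 0.13, and with Tead4 −0.12 and −0.11. Rpl10, which fell in intronic reads of Sox9 cells, hosts 1 snoRNA gene. What part of the intronic reads came from snoRNAs was not tested.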

How the data were processed

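Total RNA depleted of ribosomal RNA was read from 1 end in strand-specific libraries, per the labels' protocols; Bowtie2, mm9 and DESeq 1.10.1 are named in the submitters' processing notes. For annotation, read assignment and use of strand: not given in the sources used here. The signal columns deposited by the authors are group means of read counts divided by DESeq size factors, and the p-value columns are the authors' raw and adjusted values. Whole reads of 2 libraries a group were recovered uniquely for 100% of genes (tolerance 1e-09; tested on simulated data). Library 1 has the larger size factor, separately in exonic and intronic tables, and its number pairs nothing. Each table was fitted separately with limma 3.58.1 (R 4.3.3), mean-variance trend, log2(normalised reads + 1), genes with a mean of at least 50, Benjamini-Hochberg over all genes of the table, two-sided, threshold 0.05. Exonic and intronic libraries were matched by the sign of the correlation, over all genes, of the difference between library 1 and library 2. Members, gene lists and tests were chosen with earlier results of these data known. Values per library are given for members past the threshold (up to 12 a comparison), the 3 highest and 3 lowest exonic members of a comparison, paralogs and the stalk; other members and non-members are named where a grouping turns on them, some chosen after their values were seen. Alternatives were pseudocount, minimum, scaling, limma voom, a term for library order, the authors' adjusted p-values and leaving out each library; centring within chromosomes was added after seeing the data. Runs of C or T were counted anywhere in the start window. Genome positions come from GRCm38.p6, not from mm9. All columns used were mapped to groups. Protein sequences were not used here. Intervals cover counting error only. Values of some members that fell are not reported here.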

Additional observations from a re-analysis of the deposited data

How the results depend on the processing

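No paired analysis was possible because the labels and tables give no replicate numbers that groups share; the term for library order was taken from the data themselves and is no pairing of the design. With 2 libraries a group, the number of members past the threshold depended on the setting, and for each change the cause was not tested. For exonic reads of Dicer KO it was 14 as reported, 7 by the authors' adjusted p (1 higher, 6 lower, where 7.73% and 6.29% of all genes were), 38 with a term for library order (3 rose and 35 fell, 3.85% and 44.9%, against 25.2% and 22.0% of all genes) and 5 centred within chromosomes; leaving out 1 library gave 1 to 10. With the term for library order it was 2, 16 and 3 in exonic reads of Pbx3, Sox9 and Tead4 and 11, 6, 28 and 8 in intronic reads of Dicer KO, Pbx3, Sox9 and Tead4, beside 6.07%, 18.5%, 8.75%, 30.5%, 7.28%, 18.6% and 16.2% of all genes in that order. Leaving out 1 library gave 0 to 6 for Sox9 and 0 to 16 for Tead4 in exonic reads, 0 to 7, 0 to 15 and 0 to 11 for Dicer KO, Sox9 and Tead4 in intronic reads, and 0 to 17 for the exonic minus intronic change in Dicer KO. The authors' adjusted p gave 1 member for intronic Dicer KO, and no minimum gave 2 for intronic Sox9. Rpl22l1 kept its call in all 15 alternatives, at 0.98 to 1.29; the 13 members that fell and Rpl10 in intronic reads of Sox9 kept their direction in all 15 and their call in 7 to 13.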
